A study of Mus musculus with 2 samples.

Results

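Endothelial-like barcodes were looked for among the droplets of a mouse bone marrow stroma preparation that the authors' filter had not passed. A barcode was counted as endothelial-like when its raw counts of Cdh5, Pecam1, Emcn, Kdr, Egfl7, Plvap and Flt1 summed to 5 or more and its counts of Vpreb1, Igll1, Cd79a and Slc4a1, which are B-lineage and red cell genes, summed to less than 5. The rule took 205 barcodes, 91 from the sample Stroma1 and 114 from Stroma2, out of 2260 that did not pass and 15028 barcodes in the table. They were set against 2847 retained cells (948 and 1899), which passed the filter and are the stromal cells of the study, and against the other 2055 barcodes that did not pass (494 and 1561). A further 9921 barcodes carry no filter label and entered no comparison.

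The series measured RNA in single cells with inDrops, a droplet method. The mice are labelled C56BL/6 and were 8 to 16 weeks old. Their femurs, tibiae and pelvis were crushed, the marrow was digested with collagenase and dispase, and viable cells negative for CD45, Ter119 and CD31 were sorted. All barcodes of all sets come from this gate. The labels give 1 group of 2 samples, with libraries 1.1 and 1.2 in Stroma1 and 2.1, 2.2 and 2.3 in Stroma2, with nothing on whether these were different mice. The p-values below therefore measure only how much a difference between sets of barcodes varied between these samples. The members were chosen on the counts of 11 genes in the same barcodes, so those genes are given as values with no test, and the tests of other genes describe the chosen barcodes and are no independent evidence of what the cells are.

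Endothelial cells line the blood vessels. In marrow the vessels are mainly thin-walled sinusoids, which take up waste from the blood through scavenger receptors, and arterioles with capillaries, which carry Notch ligands and Ly6a (Sca-1). Cdh5 encodes VE-cadherin of the endothelial junction, Pecam1 encodes CD31, Kdr and Flt1 are receptors for VEGF, Plvap forms the diaphragms of fenestrae and caveolae, Emcn is a surface sialomucin and Egfl7 a secreted vessel protein. Endothelial identity is set by ETS-family factors such as Erg and Fli1 together with Sox7, Sox17 and Sox18.

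The upstream sequences of 4 genes from the lists used here are shown because their transcripts were all higher in the endothelial-like barcodes: Tek, the angiopoietin receptor Tie2, Cldn5, the tight junction protein claudin-5, Stab1, a sinusoidal scavenger receptor, and Gja4, the arterial gap junction protein connexin 37. They were picked because these windows hold no transcribed base of the gene in GENCODE M21. Each is the 250 bases before the gene's start in RefSeq (GRCm38.p6), 5′ to 3′ on the gene's strand, and capitals mark an ETS-type motif, CAGGAA or CCGGAA on either strand.
Tek, chr4:94739039-94739288, plus strand: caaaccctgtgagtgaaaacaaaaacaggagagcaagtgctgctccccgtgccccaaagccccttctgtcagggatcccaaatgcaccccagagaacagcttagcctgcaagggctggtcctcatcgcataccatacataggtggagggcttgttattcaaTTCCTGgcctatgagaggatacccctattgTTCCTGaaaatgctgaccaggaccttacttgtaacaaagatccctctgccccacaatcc
Cldn5, chr16:18776597-18776846, plus strand: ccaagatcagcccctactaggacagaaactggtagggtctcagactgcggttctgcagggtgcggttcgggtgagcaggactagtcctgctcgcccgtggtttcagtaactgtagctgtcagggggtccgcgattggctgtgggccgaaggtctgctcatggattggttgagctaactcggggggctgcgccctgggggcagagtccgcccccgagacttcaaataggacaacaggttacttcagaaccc
Stab1, chr14:31168642-31168891, minus strand: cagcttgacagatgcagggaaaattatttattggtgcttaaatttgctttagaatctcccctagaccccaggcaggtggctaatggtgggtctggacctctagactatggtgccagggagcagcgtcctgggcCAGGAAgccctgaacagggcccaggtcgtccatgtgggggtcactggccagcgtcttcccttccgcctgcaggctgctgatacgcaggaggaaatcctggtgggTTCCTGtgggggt
Gja4, chr4:127314040-127314289, minus strand: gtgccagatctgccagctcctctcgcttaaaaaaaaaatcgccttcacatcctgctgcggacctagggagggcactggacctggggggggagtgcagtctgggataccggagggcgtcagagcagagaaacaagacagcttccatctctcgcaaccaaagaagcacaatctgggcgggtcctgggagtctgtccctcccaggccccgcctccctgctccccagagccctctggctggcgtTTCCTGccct

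The motif occurred 2 times in the Tek window and 2 times in that of Stab1. It occurred once in the Gja4 window and was not among the letters of the Cldn5 window. The table of upstream windows matched 16 of the 26 endothelial identity genes described below, with 17 windows, of which 12 held the motif (70.6%). Of all 32817 windows of that length, 11502 held it (35.0%). All windows are not limited to genes tested here, and the difference between these shares was not tested. A match describes the letters only and shows no binding.

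Depth was similar in the endothelial-like barcodes and the retained cells. The endothelial-like barcodes held 155148 counts in Stroma1 and 196920 in Stroma2, with a median of 1243 per barcode (range 509 to 16526), against 1406 in retained cells and 2577 in the other barcodes. Their median share of mitochondrial counts was 5.50%, against 4.08% in retained cells and 5.43% in the other barcodes. Of the 205 barcodes, 194 lay within the ranges of total counts and mitochondrial share seen among retained cells, and 11 had a higher mitochondrial share. Cell barcodes found in more than 1 library of a sample accounted for 4 endothelial-like rows of Stroma1 and 10 of Stroma2, and no cell barcode of the set occurred in both samples. Such rows numbered 64 in Stroma1 and 435 in Stroma2 among retained cells, and 88 and 639 among the other barcodes.

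Endothelial-like barcodes were a larger part of what the filter left out in Stroma1 than in Stroma2. They made up 15.6% of the barcodes that did not pass in Stroma1 (exact 95% binomial interval 12.7 to 18.8) and 6.81% in Stroma2 (5.65 to 8.12). By library the share was 14.9% in 1.1, 16.3% in 1.2, 5.13% in 2.1, 8.09% in 2.2 and 7.45% in 2.3. The libraries of Stroma1 both lay above those of Stroma2. With 1 group of 2 samples no test was made, and intervals here and below cover counting error only.

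The genes of the rule were near 0 outside the set. Cdh5 stood at 2282 CPM (counts scaled to a fixed total per sum) in endothelial-like barcodes of Stroma1 and 1843 in Stroma2, against 1.21 and 5.15 in retained cells and 2.98 and 1.91 in the other barcodes. Plvap had the highest level of the 7, with 2933 and 2270 CPM in endothelial-like barcodes, against 0.603 and 4.07 in retained cells and 19.2 and 17.7 in the other barcodes. Pecam1, whose product CD31 the sort had selected against, stood at 1463 and 1127 CPM, against 10.2 and 9.49 in retained cells and 23.9 and 15.9 in the other barcodes. It was detected in 152 of the 205 endothelial-like barcodes (74.1%). The surface protein itself was not measured here.

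Kdr, Flt1, Emcn and Egfl7 lay between 848 and 1489 CPM in both samples. Egfl7 was the gene of the 7 with the highest level in the other barcodes, at 37.5 and 43.7 CPM. Of the 4 genes that kept barcodes out, Vpreb1, Igll1 and Cd79a had no count in any endothelial-like barcode and Slc4a1, the red cell anion exchanger, had a count in 3. On the GRCm38 genome Cdh5 lies on chromosome 8 (104101625 to 104144511, plus strand), Plvap on chromosome 8 (71497765 to 71511752, minus strand) and Pecam1 on chromosome 11 (106654217 to 106750628, minus strand).

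**Figure D1:**
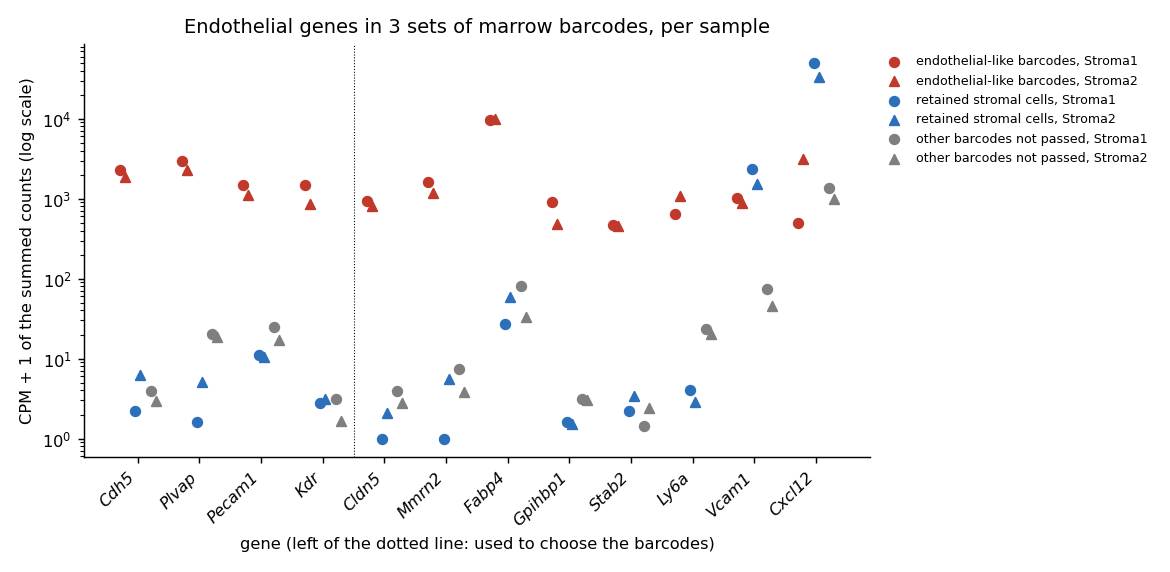
Levels of 12 genes as CPM + 1 on a log axis, from counts summed per sample, in endothelial-like barcodes (red), retained stromal cells (blue) and the other barcodes that did not pass (grey), with circles for Stroma1 and triangles for Stroma2. Red points of the genes from Cdh5 to Ly6a lie above all others, Fabp4 reaches 9771 and 9791 CPM, and Vcam1 and Cxcl12 are highest in retained cells.

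The marker sum had a median of 15 in the set (range 5 to 56), and 200 of the 205 barcodes had counts of at least 3 of the 7 genes. Just inside the threshold, 12 barcodes had a sum of 5, a median of 781.5 total counts and a median of 5.5 counts over the endothelial identity genes, which the rule did not use. Just outside it, 22 barcodes had a sum of 4, a median of 4637 total counts and a median of 3 such counts. In the whole set the median was 19 identity counts, while it was 0 in retained cells and 0 in the other barcodes. A single endothelial-like barcode had none.

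Genes were tested across all 11620 that passed a filter on low counts, with edgeR's quasi-likelihood test on counts summed per sample and set, and a Benjamini-Hochberg adjusted p under 0.05 was called. Against retained cells 1378 genes were higher (11.9%) and 1325 lower (11.4%), together 23.3% of those tested. Against the other barcodes 1889 were higher (16.3%) and 2102 lower (18.1%), together 34.3%. These shares are the background for the gene lists below, and 665 genes were higher in both comparisons. The comparisons share the endothelial-like sums. The median log2 difference of all tested genes was -0.02 against retained cells and -0.24 against the other barcodes. Scaling by total counts alone gave 0.40 and 0.04, with 2360 genes higher and 1018 lower against retained cells and 2241 higher and 1477 lower against the other barcodes. A gene with no count in retained cells could pass the filter only through its counts in the endothelial-like or the other barcodes.

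Pan-endothelial genes that the rule did not use were higher as well. All 26 tested genes of the endothelial identity list were called higher against retained cells, with a median log2 difference of 6.54, and all 26 against the other barcodes, with a median of 6.81. The smallest difference against retained cells was that of the sphingosine-1-phosphate receptor S1pr1, at 1.01 ± 0.24 (SE). Cldn5 stood at 947 and 813 CPM in endothelial-like barcodes, against 0 and 1.09 CPM in retained cells and 2.98 and 1.75 CPM in the other barcodes. Its log2 difference was 9.66 ± 0.41 (SE) against retained cells (edgeR adjusted p = 5.31e-11) and 8.36 ± 0.35 against the other barcodes (edgeR adjusted p = 2.41e-11).

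Mmrn2, an endothelial matrix protein, was among the more abundant identity genes, with 1618 and 1173 CPM in endothelial-like barcodes, against 0 and 4.61 CPM in retained cells. The angiopoietin receptor Tek and its relative Tie1 were higher than in retained cells by 7.40 ± 0.55 and 5.60 ± 0.39 on the log2 scale. Rasip1, which acts in vessel lumen formation, stood at 677 and 513 CPM, against 0 and 0.813 CPM in retained cells and 0.853 and 0.638 CPM in the other barcodes. The surface sialomucin Cd34 was at 709 and 467 CPM, against 0 and 1.90 CPM in retained cells, and it was also seen in the other barcodes, at 20.5 and 13.7 CPM. For none of these genes did the values of the endothelial-like barcodes overlap those of the other sets. With 2 values per set and genes that were all called higher, this adds no evidence beyond the calls. The share of all tested genes without such overlap is not given here.

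With every barcode thinned to 500 counts, the same genes were read as shares of barcodes. Mmrn2 was found in 50.2% of endothelial-like barcodes (exact 95% interval 43.2 to 57.3), 0.0351% of retained cells and 0.535% of the other barcodes. Cldn5 was found in 34.6% (28.1 to 41.6), 0.105% and 0.292%. Unthinned, Cldn5 had a count in 53.7% of endothelial-like barcodes. The shares in retained stromal cells are no measured background, since those cells were chosen by the filter.

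**Figure D2:**
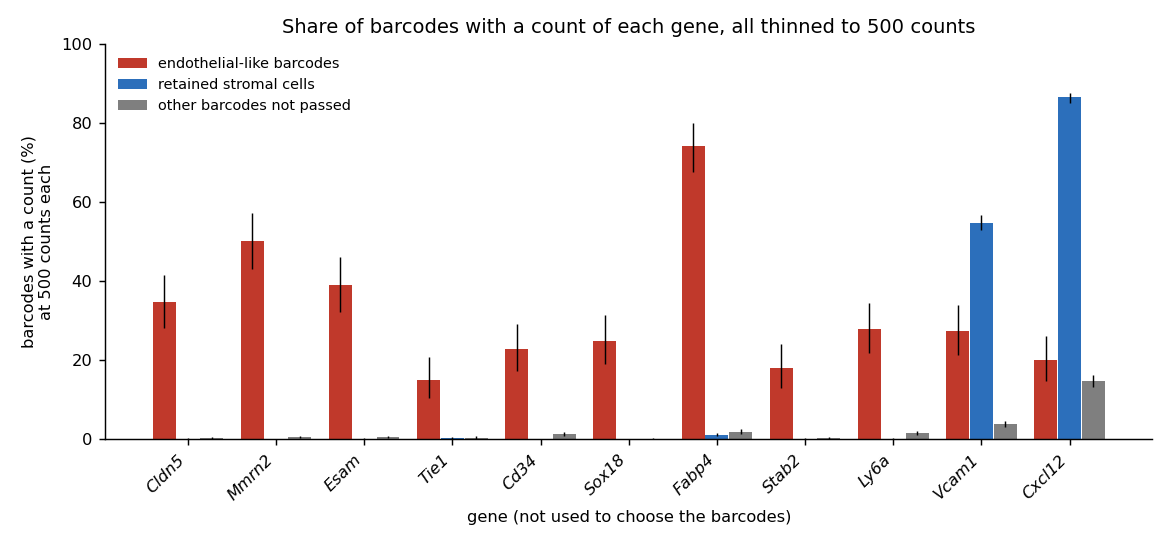
Percent of barcodes with at least 1 count of each of 11 genes after every barcode was thinned to 500 counts, in endothelial-like barcodes (red), retained stromal cells (blue) and the other barcodes that did not pass (grey), with exact 95% binomial intervals. Fabp4 was found in 74.1% of endothelial-like barcodes, while Vcam1 and Cxcl12 were found more often in retained cells, at 54.8% and 86.5%.

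Among endothelial transcription factors 18 of 22 were higher than in retained cells and none was lower, with a median log2 difference of 3.47. Sox18 stood at 612 and 432 CPM in endothelial-like barcodes, against 1.21 and 1.63 CPM in retained cells (log2 difference 7.93 ± 0.38, edgeR adjusted p = 9.94e-11). Sox17, an arterial factor, was scarcer at 64.5 and 71.1 CPM, against 0 and 0.813 CPM in retained cells. The ETS factor Erg had 90.2 and 91.4 CPM, against 2.41 and 1.08 CPM in retained cells. Set against the other barcodes, 18 of the 22 were higher and 2, Tal1 and Lmo2, which blood progenitors also use, were lower. Erg was among the higher, by 2.47 ± 0.47, with 8.10 and 18.5 CPM in the other barcodes.

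Receptors and ligands that act on vessels were divided. Of 20 genes of VEGF, Tie, apelin and BMP signalling, 10 were higher and 5 lower than in retained cells, while 17 were higher and 1 lower than in the other barcodes. The lymphatic and sinusoidal VEGF receptor Flt4 stood at 374 and 173 CPM, against 1.81 and 0.813 CPM in retained cells (7.27 ± 0.48). The apelin receptor Aplnr stood at 425 and 452 CPM, against 1.81 and 0.542 CPM in retained cells (8.37 ± 0.43). Apln itself, with 103 and 91.4 CPM, had no count in retained cells, which makes it at least 172-fold higher by a floor of 3 counts over the retained cells of both samples. The 5 lower genes included the ligands Vegfa (-2.33 ± 0.33) and Vegfc (-3.22 ± 0.39) and the secreted proteoglycan Esm1 (-6.31 ± 0.48). Esm1 stood at 0 and 20.3 CPM in endothelial-like barcodes, against 853 and 569 CPM in retained cells.

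Of 13 tested genes of the Notch list 5 were higher than in retained cells, among them the ligand Dll4 (6.18 ± 0.71) and the receptor Notch4 (4.80 ± 0.52). Another 5 were lower, among them Notch3 (-5.57 ± 0.55), the receptor of pericytes. Dll4 stood at 245 and 91.4 CPM in endothelial-like barcodes, against 0 and 2.17 CPM in retained cells. When set against the other barcodes, 8 of 13 were higher and no gene of the list was called lower by edgeR.

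Junction and adhesion genes were higher in 13 of 17 cases against retained cells and in 15 of 17 against the other barcodes. The junction molecule Esam stood at 857 and 716 CPM, against 0 and 1.90 CPM in retained cells. Sele, the E-selectin that catches white cells, had 58.0 and 71.1 CPM and no count in retained cells, which makes it at least 116-fold higher, and Pcdh17 was at least 182-fold higher. The only gene of the list called lower than in retained cells was Vcam1, an adhesion molecule of both sinusoids and marrow stroma. It stood at 1012 and 873 CPM in endothelial-like barcodes, against 2372 and 1530 CPM in retained cells (-1.41 ± 0.23, edgeR adjusted p = 0.000167) and 72.9 and 45.1 CPM in the other barcodes (3.77 ± 0.26).

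Fatty acid handling gave the highest level that any named gene reached in the endothelial-like barcodes. Fabp4, a fatty acid carrier of capillary endothelium and fat cells, stood at 9771 and 9791 CPM in endothelial-like barcodes, against 25.9 and 57.2 CPM in retained cells and 78.9 and 32.4 CPM in the other barcodes. Its log2 difference was 7.39 ± 0.47 against retained cells (edgeR adjusted p = 2.92e-09) and 7.23 ± 0.47 against the other barcodes. Counts of Fabp4 were present in 168 of the 205 barcodes, with a median of 11 per barcode and a maximum of 102. In the 5 libraries it ranged from 4832 CPM in 2.3 to 18093 CPM in 2.2.

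Gpihbp1, which carries lipoprotein lipase across capillary endothelium, stood at 909 and 477 CPM, against 0.603 and 0.542 CPM in retained cells (9.58 ± 0.39). The lipase itself, Lpl, was lower by -3.55 ± 0.32, with 232 and 452 CPM in endothelial-like barcodes, against 3924 and 2456 CPM in retained cells. Of 16 tested genes of caveolae and lipid transport, 14 were higher and only Lpl was lower than in retained cells. Compared with the other barcodes, 12 were higher and the transferrin receptor Tfrc, which red cell precursors use to take up iron, was lower.

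Scavenger receptor and haemostasis genes were mostly higher. Stab2, a hyaluronan scavenger receptor, stood at 464 and 452 CPM, against 1.21 and 2.44 CPM in retained cells (7.39 ± 0.39) and 0.426 and 1.44 CPM in the other barcodes (8.37 ± 0.39). Mrc1, the mannose receptor, stood at 664 and 498 CPM, against 0 and 1.44 CPM in the other barcodes. Of the 13 tested sinusoidal genes 12 were higher than in retained cells, Vcam1 being the exception, and 13 were higher than in the other barcodes. Tfpi, the tissue factor pathway inhibitor, stood at 1650 and 1336 CPM, against 74.7 and 56.9 CPM in retained cells (4.12 ± 0.25). In the scavenger and endocytosis list 9 of 15 genes were higher and 3 lower than in retained cells, and 11 were higher than in the other barcodes. In the haemostasis list 11 of 15 genes were higher than in retained cells and 14 of 15 than in the other barcodes.

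Vwf, the von Willebrand factor of larger vessels and megakaryocytes, was scarce. It had 8 counts in all, 32.2 and 15.2 CPM in endothelial-like barcodes, against 6.03 and 4.34 CPM in retained cells, and was not called (1.77 ± 0.75, edgeR adjusted p = 0.104). Lymphatic vessels have a related programme, and Prox1, its defining factor, had 1 count in the set, while Lyve1 and Pdpn had none. The 2 lymphatic-list genes that were tested, Flt4 and Mmrn1, were higher in both comparisons. By the floor of 3 counts, 0 of 205 barcodes allows a share of up to 1.46% of barcodes with a count, which is no limit on cells that express the gene.

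Arterial and capillary genes moved both ways against the stroma. Of 14 tested, 8 were higher and 5 lower than in retained cells, and 10 were higher and 1 lower than in the other barcodes. Ly6a, which encodes the surface protein Sca-1, stood at 651 and 1072 CPM in endothelial-like barcodes, against 3.01 and 1.90 CPM in retained cells (log2 difference 8.15) and 22.2 and 19.3 CPM in the other barcodes (5.13). Its relative Ly6c1 stood at 348 and 284 CPM, against 0.603 and 0.271 CPM in retained cells. Among G protein-coupled receptors and their signalling genes, 13 of 18 were higher and 2 lower than in retained cells, and 15 were higher than in the other barcodes. Ramp3, a partner of the adrenomedullin receptor, had no count in retained cells and was at least 177-fold higher.

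**Figure D3:**
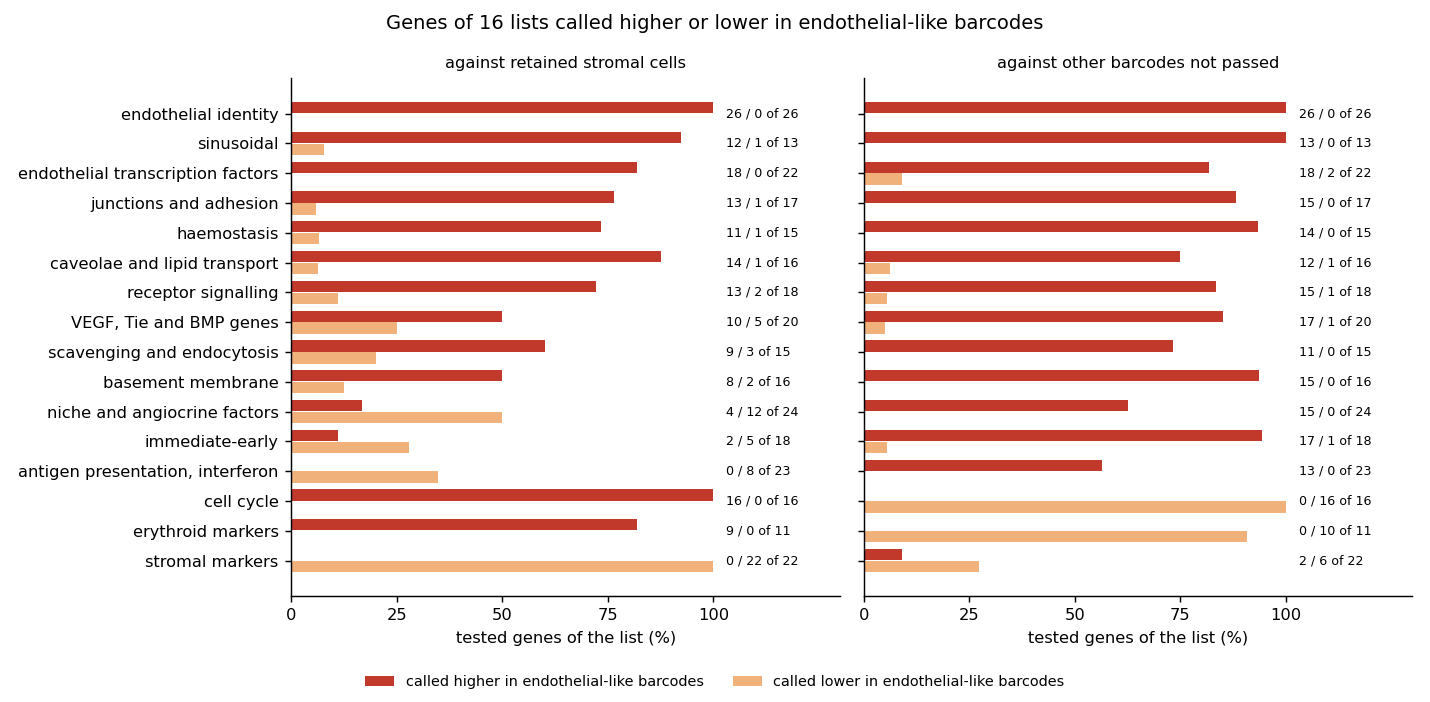
Percent of the tested genes of 16 lists that were called higher (red) or lower (orange) in endothelial-like barcodes, against retained stromal cells (left) and the other barcodes that did not pass (right), at a Benjamini-Hochberg adjusted p under 0.05 from edgeR, with the numbers beside the bars. All 26 identity genes were higher in both panels, and the cell cycle list was higher on the left (16 of 16) and lower on the right (16 of 16), where members holding blood cell counts were included.

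Niche factors were divided. Of 24 tested growth factors, chemokines and other factors of the marrow niche, 4 were higher and 12 lower than in retained cells, while 15 were higher and none lower than in the other barcodes. The higher ones were the Notch ligands Dll1 and Dll4, Pdgfb and Tgfb1. Pdgfb, which recruits pericytes, stood at 374 and 239 CPM, against 0 and 1.90 CPM in retained cells (7.34 ± 0.52). Kitl, the stem cell factor, stood at 58.0 and 218 CPM, against 1115 and 729 CPM in retained cells (-3.01 ± 0.39) and 34.1 and 20.1 CPM in the other barcodes (2.22 ± 0.45).

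Cxcl12, a chemokine that retains haematopoietic stem cells in their niche, rested on few barcodes. It stood at 490 CPM in endothelial-like barcodes of Stroma1 and 3128 CPM in those of Stroma2, against 50110 and 33294 CPM in retained cells (-5.06 ± 0.57, edgeR adjusted p = 2.22e-06) and 1375 and 1004 CPM in the other barcodes (0.17 ± 0.51, not called). Only 60 of the 205 barcodes had a count, and 8 of them held 525 of the 692 counts. Its CPM in single libraries ran between 209 in 1.1 and 5037 in 2.1. Rspo3 had no count in the endothelial-like barcodes and was at least 10.5-fold lower than in retained cells.

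The matrix under the endothelium was also represented. Of 16 basement membrane genes 8 were higher and 2 lower than in retained cells, and 15 were higher than in the other barcodes. The collagen IV chains Col4a1 and Col4a2 stood at 2971 and 1889 CPM and at 1998 and 1239 CPM, against 744 and 466 CPM and 553 and 348 CPM in retained cells (1.60 ± 0.29 and 1.44 ± 0.27). Sparcl1 stood at 541 and 533 CPM, against 1.21 and 3.25 CPM in retained cells (7.25 ± 0.35). Sparc, a matrix protein of bone and stroma, was lower by -1.80 ± 0.34.

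Immediate-early genes, which are induced within minutes of a stimulus and also by tissue dissociation, were higher than in the other barcodes for 17 of 18, and Myc was lower. Fos stood at 2417 and 2260 CPM in endothelial-like barcodes, against 335 and 199 CPM in the other barcodes (2.91 ± 0.25). The level in retained cells was above both, at 5285 and 3689 CPM (-1.30 ± 0.24). Against retained cells 2 of the 18 were higher and 5 lower. This split turned with the choices made, to 8 higher and 4 lower with scaling by total counts alone and to 13 higher and 0 lower against the MSC class of retained cells alone. Antigen presentation and interferon genes were lower than in retained cells for 8 of 23 and higher for none, with H2-K1 at 1141 and 1229 CPM, against 4492 and 2935 CPM (-2.01 ± 0.24). With scaling by total counts alone 6 were lower and 2 higher. Of the 23, 13 were higher than in the other barcodes.

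Stromal markers were all lower than in retained cells. All 22 of them were called, with a median log2 difference of -5.38. Col1a1, a chain of bone and fibroblast collagen, stood at 45.1 and 193 CPM in endothelial-like barcodes, against 23799 and 80655 CPM in retained cells (-9.11 ± 0.47, edgeR adjusted p = 2.34e-10). Lepr, the leptin receptor that marks marrow stroma, stood at 6.45 and 86.3 CPM, against 1487 and 945 CPM in retained cells (-4.94 ± 0.45). Bglap, the bone protein osteocalcin, and Runx2, the bone cell factor, had no count in the set and were at least 142-fold and 29.9-fold lower than in retained cells. Compared with the other barcodes, 2 of the 22 were higher and 6 lower, or 1 and 13 without the 10 members that held 3 or more counts of Lepr, Adipoq, Pdgfra, Col1a1, Ibsp and Spp1, called stromal counts here. The genes of these stromal counts are on the list, so the change follows in part from how the 10 were chosen. The summed level of the list was 864 and 1767 CPM in endothelial-like barcodes, against 75696 and 196417 CPM in retained cells and 5423 and 6365 CPM in the other barcodes.

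Markers of mural cells, the pericytes and smooth muscle cells that wrap vessels, were mixed. The summed level of the list was 1450 and 1153 CPM in endothelial-like barcodes, against 542 and 377 CPM in retained cells and 264 and 126 CPM in the other barcodes. Acta2, Myh11, Tagln, Cspg4 and Des had no count in the endothelial-like barcodes, and Rgs5 had 2 counts. Of the 10 tested mural genes 3 were higher and 2 lower than in retained cells. The same number, 3 and 2, was called against the other barcodes. The 3 higher genes were in both comparisons Mcam, which endothelium also carries, and Kcnj8 and Abcc9, the subunits of a potassium channel. Abcc9 stood at 554 and 427 CPM, against 97.0 and 64.3 CPM in retained cells (2.23 ± 0.23), and Kcnj8 at 329 and 234 CPM, against 7.84 and 4.07 CPM (5.22 ± 0.37). The part of mural cell RNA in these values was not tested.

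White cell markers were low next to the other barcodes. The list summed to 155 and 249 CPM in endothelial-like barcodes, against 221 and 118 CPM in retained cells and 7150 and 1119 CPM in the other barcodes. The pan-leukocyte gene Ptprc had 1 count in the set, and Lyz2 and Coro1a had none, against 446 and 61.7 CPM of Lyz2 and 80.2 and 43.2 CPM of Coro1a in the other barcodes. Of the 10 tested white cell genes 8 were lower than in the other barcodes and 2 lower than in retained cells. Fcer1g, the gamma chain of Fc receptors, was the only one called higher, at 122 and 193 CPM, against 31.9 and 23.3 CPM in retained cells (2.18 ± 0.49). Of the B-lineage genes 9 of 10 were lower than in the other barcodes, and 7 had no count at all. In the blood progenitor list 5 of 11 genes were higher and 2 lower than in retained cells, and 3 were higher and 4 lower than in the other barcodes. Of 6 megakaryocyte genes 2 were higher than in retained cells and 2 lower than in the other barcodes. Of 2 tested glial genes 1 was lower than in retained cells. Pf4, a platelet chemokine, had 6 counts, and the megakaryocyte list summed to 51.6 and 35.5 CPM, against 28.3 and 17.6 CPM in retained cells and 198 and 151 CPM in the other barcodes.

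All 16 tested cell cycle genes were higher than in retained cells, with a median log2 difference of 2.62, and all 16 were lower than in the other barcodes, with a median of -2.07. Of the 11 erythroid genes 9 were higher than in retained cells and 10 lower than in the other barcodes. There were 32 endothelial-like barcodes with 3 or more counts of white cell, megakaryocyte, erythroid or B-lineage markers, and they held 76.4% of the cell cycle counts and 37.4% of all counts of the set. Without them 1 of the 16 cell cycle genes was higher than in retained cells, and 800 genes in all were called higher, against 1378 with them. None of the erythroid or megakaryocyte genes and 2 of the 11 blood progenitor genes were then higher. For the erythroid and megakaryocyte lists this follows from how the 32 were chosen, since their counts were part of the choice. The identity list still had 26 of 26 genes higher in both comparisons.

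Car1, a carbonic anhydrase of early erythroid progenitors, lay in few barcodes. Of its 265 counts 260 lay in 9 barcodes (3 in Stroma1 and 6 in Stroma2), whose total counts had a median of 8837. Library 2.3 alone held 201 of the 265 counts. These 9 barcodes also had endothelial identity counts, with a median of 15. The whole set had a median of 19 at a median of 1243 total counts, so the 9 held fewer per total count. The deepest of the 9, with 16526 total counts, had a marker sum of 5 and only 2 identity counts. Whether they hold RNA of more than 1 cell was not tested.

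The 6 genes on no list with the highest called differences are named for each comparison. Against retained cells they were Afap1l1, Csf3, Ltc4s, Hs3st1, Tnfaip8l1 and Ctla2b. All but Ctla2b had no count in retained cells, so that their rank rests on a reference of 0. Hs3st1 and Tnfaip8l1 had only 21 and 14 counts in the endothelial-like barcodes. Afap1l1 stood at 110 and 91.4 CPM with no count in retained cells, which makes it at least 177-fold higher, and Ltc4s, the leukotriene C4 synthase, was at least 162-fold higher. Csf3, the growth factor G-CSF, had 25.8 and 132 CPM and no count in retained cells. Of its 30 counts 17 came from 1 barcode of library 2.2. In the comparison with the other barcodes the 6 genes were Ces2e, Gpm6a, Thrsp, Ushbp1, Slc10a6 and Lipg. Ces2e and Slc10a6, with 17 and 7 counts in the endothelial-like barcodes, had no count in the other barcodes, and their rank rests on that 0. Gpm6a, a membrane glycoprotein known from neurons, stood at 361 and 355 CPM, against 0.853 and 0.319 CPM in the other barcodes (9.19 ± 0.54). Lipg, the endothelial lipase, stood at 219 and 147 CPM, against 0 and 0.638 CPM (8.22 ± 0.69).

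The endothelial-like barcodes were not alike in their counts of vessel-type genes. For this description, which was chosen after the data had been seen and carries no test, each barcode was scored by its counts of 7 sinusoidal genes (Stab2, Stab1, Flt4, Mrc1, Gpr182, Dnase1l3 and Ackr1) and of 10 arterial or capillary genes (Ly6a, Ly6c1, Sox17, Efnb2, Gja4, Gja5, Bmx, Sema3g, Edn1 and Rbp7), all under 20 CPM in retained cells. Sinusoidal counts alone were found in 82 barcodes, arterial or capillary counts alone in 46, both in 68 and neither in 9. Only 7 barcodes had 4 or more of each.

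More sinusoidal than arterial or capillary counts were found in 124 barcodes and the reverse in 61, with 20 equal. The side of a barcode could rest on 1 count, and a kind with no count may have been missed at this depth. The sinusoidal side held 69.2% of the barcodes in Stroma1 (exact 95% interval 58.7 to 78.5) and 53.5% in Stroma2 (43.9 to 62.9). The arterial side held 22.0% in Stroma1 and 36.0% in Stroma2. Depth was alike on both sides, with a median of 1262.5 counts on the sinusoidal side and 1232 on the arterial side.

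**Figure D4:**
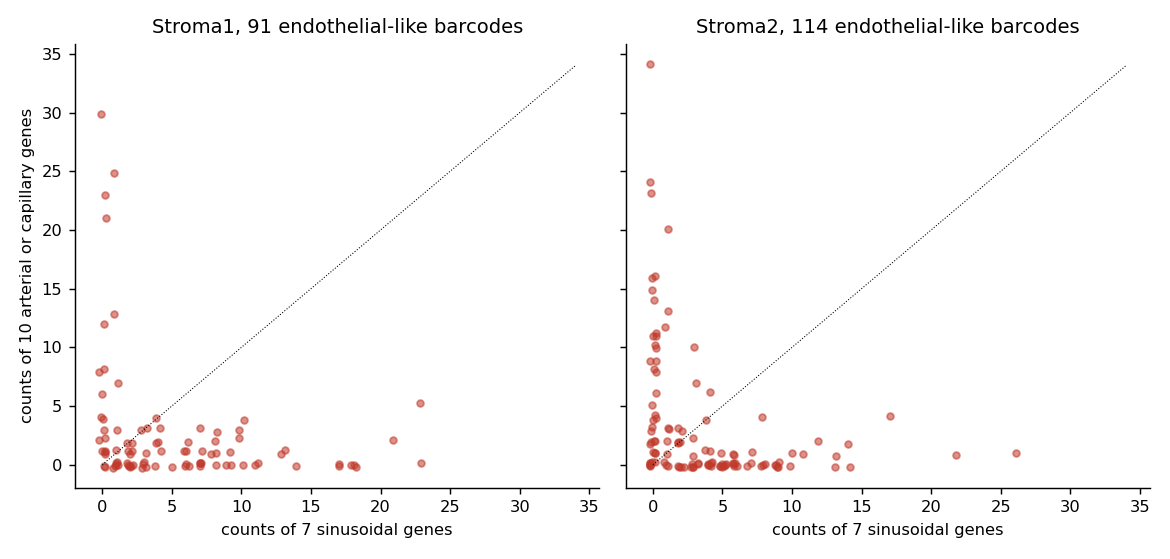
Counts of 10 arterial or capillary genes (vertical axis) against counts of 7 sinusoidal genes (horizontal axis) in each endothelial-like barcode of Stroma1 (left, 91 barcodes) and Stroma2 (right, 114 barcodes), with a small random shift so that points at the same value can be seen and a dotted line at equal counts. Most barcodes lie along one axis or the other, and 7 of the 205 have 4 or more counts of each kind.

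Genes that took no part in the scoring differed between the sides in both samples. There were 1394 such genes with 40 or more counts on both sides together. Of these, 67 were higher on the sinusoidal side and 47 on the arterial side by at least 1 log2 in both samples. The log2 values were of CPM plus 50. The sinusoidal side held 204015 counts and the arterial side 96524, so the filter was easier to pass for genes of the sinusoidal side. Genes with no arterial count, such as Adamts5, Selp and F8, passed it only through the sinusoidal side. Adamts5, a matrix protease, had 745 and 639 CPM on the sinusoidal side and no count on the arterial side. Gpm6a had 499 and 713 CPM on the sinusoidal side, against 0 and 16.3 CPM on the arterial side. Selp, the P-selectin stored for release at the vessel surface, had 336 and 245 CPM on the sinusoidal side and no count on the arterial side.

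Vcam1 followed the same division, with 1317 and 1533 CPM on the sinusoidal side, against 170 and 310 CPM on the arterial side. Tfpi had 2207 and 2353 CPM, against 85.1 and 506 CPM. The sinusoidal side also held more Angptl4, an inhibitor of lipoprotein lipase, at 826 and 1629 CPM, against 28.4 and 212 CPM. The channel gene Kcnj8 had 445 and 383 CPM, against 0 and 65.3 CPM, so that its counts lay mostly on the sinusoidal side. The clotting factor gene F8 had 42 counts on the sinusoidal side and 0 on the arterial side.

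Genes higher on the arterial side included Podxl, a surface sialomucin, with 90.8 and 117 CPM on the sinusoidal side, against 1731 and 1974 CPM on the arterial side. Cav1, the coat protein of caveolae, had 36.3 and 10.6 CPM, against 766 and 669 CPM. The calcium-binding S100a6 had 99.9 and 42.6 CPM, against 1362 and 1191 CPM, and the intermediate filament Vim had 572 and 532 CPM, against 5647 and 3035 CPM. Klf2, a factor induced by blood flow, had 418 and 490 CPM, against 1305 and 1534 CPM.

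Kitl had 36.3 and 31.9 CPM on the sinusoidal side, against 142 and 636 CPM on the arterial side. Its counts were 4 and 3, against 5 and 39, so that Kitl lay mainly on the arterial side in Stroma2 and was near the floor in Stroma1. Without the members that held 3 or more stromal counts it had 28.9 and 32.7 CPM, against 142 and 557 CPM. Cxcl12 had 282 and 980 CPM on the sinusoidal side, against 1249 and 6967 CPM on the arterial side. Without those members it had 174 and 1002 CPM, against 1249 and 2661 CPM. Without the members that held 3 or more blood counts it had 349 and 197 CPM, against 1306 and 4507 CPM. Fabp4 was present on both sides, with 12406 and 14334 CPM, against 2866 and 8061 CPM.

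The genes of the rule, on which the members were chosen, are given by side as values only. Plvap stood at 2906 and 2513 CPM on the sinusoidal side and 2270 and 2513 CPM on the arterial side, and Cdh5 at 2107 and 1896 CPM on the sinusoidal side and 2526 and 2317 CPM on the arterial side. Pecam1 stood at 1335 and 1022 CPM, against 1816 and 1697 CPM, and Flt1 at 1244 and 873 CPM, against 2100 and 1925 CPM. Kdr was higher on the sinusoidal side, at 1580 and 1150 CPM, against 1107 and 816 CPM.

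**Figure D5:**
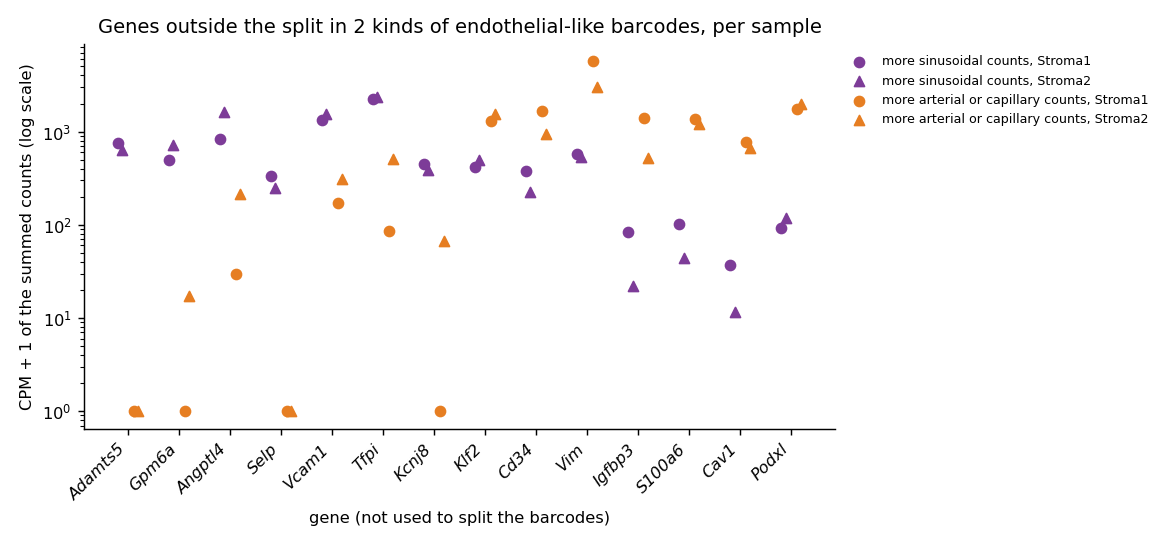
Levels of 14 genes that took no part in the scoring, as CPM + 1 on a log axis, in endothelial-like barcodes with more sinusoidal counts (purple) and with more arterial or capillary counts (orange), with circles for Stroma1 and triangles for Stroma2. Genes from Adamts5 to Kcnj8 lie higher on the sinusoidal side and those from Klf2 to Podxl higher on the arterial side in both samples.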

How the data were processed

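The table of counts per gene and barcode, the mitochondrial fraction and the deposited labels (sample, library, filter, class) were used. Per the submitters' processing notes, Bowtie 1.1.1 and the GRCm38 genome were used, with no order given. For counting, molecular identifiers and annotation the method is "not given in the sources used here". The deposited values are therefore called counts. Per the file headers, the authors gave the mitochondrial share as a fraction of a barcode's counts, and it is printed here as a percent.

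Counts were summed per sample and set of barcodes into 6 sums, since cells are not replicates. The 11 genes of the rule were taken out first. The sums were tested with edgeR 4.0.16 in R 4.3.3 (TMM, filterByExpr with a minimum count of 10, quasi-likelihood F test, terms for set and sample, common dispersion 0.0229). The sample is a block because the sets of a sample come from the same libraries. A standard error is the log2 difference over the square root of F. CPM is counts over the total of a set in a sample, without TMM. Floors are 3 counts over a set in both samples, intervals are exact Clopper-Pearson at 95%, and neither covers more than counting error. The fit was tested on simulated sums. No doublet caller was run, and members with blood or stromal counts were left out as alternatives.

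The members, the 25 gene lists and the rule for named genes were chosen with earlier results of these data known. The rule took, in each comparison, the 14 highest and 6 lowest called genes of the lists with 1 direction in both samples, the 6 highest on no list and 20 fixed genes. Other genes were named after their values had been seen. Positions of genes are from GENCODE M21 on GRCm38.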

Additional observations from a re-analysis of the deposited data

Results flagged for a closer look

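Among the barcodes with no filter label, which no comparison used, 42 met both sums of the rule, 15 in Stroma1 and 27 in Stroma2. They are listed because an endothelial signal appears in data outside the comparisons. Their total counts had a median of 394 (range 72 to 2112), 34 of them had under 500 counts, and their median mitochondrial share was 10.2%. Their counts over the endothelial identity genes had a median of 6.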

How the results depend on the processing

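The fit without the sample term, which is the analysis with no replicate block, called 1357 genes higher and 1334 lower against retained cells, and 1925 and 2147 against the other barcodes. Leaving out either sample gives values with no test, since no residual degrees of freedom remain. The number called higher against retained cells was 2360 with scaling by total counts alone, 2893 with a marker sum of 3 or more and 800 without the members holding blood counts, and the number lower was 2237 with a marker sum of 3 or more. The number called lower against the other barcodes was 1328 with DESeq2 1.42.0 and 516 with a marker sum of 3 or more. That sum gave 264 endothelial-like barcodes and a minimum of 1000 counts gave 139. Against retained cells, Ptprc turned to 0.14 with total counts alone, 1.68 with a marker sum of 3 or more, 0.055 with 1000 or more counts and 1.92 against the MSC class. Against the other barcodes, Lepr turned to -0.11 with DESeq2, -0.28 with no filter on low counts, -0.46 with a marker sum of 3 or more, -0.81 without the members with blood counts and -1.19 without those with stromal counts. Cxcl12 turned to -0.18, -0.29, -0.57 and -0.75 under the last 4 of these. Pf4 turned to 1.82 with a marker sum of 3 or more. Lepr was itself part of the stromal counts, so its value without the members with stromal counts follows in part from how they were chosen. Otherwise the causes were not tested. Of 1358 values of named genes under 17 alternatives, 1295 were labelled the same, and 1289 of 1400 list counts were within 1.5 times. In fits of both samples this label means an unchanged direction and side of the threshold. With 1 sample left out it means only a shift smaller than the SD between the samples. That label can cover a change of sign, as for Cxcl12 against the other barcodes, at -1.78 in Stroma1 alone and 0.17 in the main fit. Genes with fewer than about 10 counts in the set, such as Ptprc, Pf4 and Vwf, are limited by its 352068 counts.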

Other observations

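Among the 2847 retained cells 4 met both sums of the rule, 1 of them labelled MSC, and the highest marker sum was 17, while 2752 had a marker sum of 0. Of the barcodes that did not pass, 2 met the marker sum but had 5 or more counts of the excluded blood genes. The cell barcode of 3 endothelial-like rows also belonged to a retained cell of the same sample in another library.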
